A study of Homo sapiens with 6 samples.

Results

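The Kruppel-like factor (KLF) genes described here are 10 genes of the gene table of MIA PaCa-2 cells, picked out of the table by gene symbol: KLF2, KLF3, KLF4, KLF5, KLF6, KLF7, KLF9, KLF10, KLF11 and KLF13. They are 10 of 35993 genes in the table and 10 of the 18 KLF genes it lists. MIA PaCa-2 is an established human pancreatic carcinoma cell line. The RNA-seq data compared 3 untreated libraries with 3 libraries from cells given rhCYGB, recombinant human cytoglobin, at 4 µM for 48 h. All cells stood in medium with reduced serum, and no vehicle is named for the untreated wells. The libraries held 34838399 to 42271299 counts. The labels do not say that the replicates were separate cultures, so p-values measure the spread between these libraries, which may be technical.

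KLF proteins are transcription factors that bind GC-rich and CACCC sequences of promoters through zinc fingers at their carboxyl end, which the family shares with the SP factors. Their amino ends differ and recruit either activators, such as the acetyltransferases p300 and CBP, or repressors, such as CtBP and the SIN3 histone deacetylase complex. Several KLF genes are immediate or early response genes, and in epithelia the family is known for its part in the balance of proliferation and differentiation: KLF5 is a factor of dividing epithelial cells and KLF4 one of cells that leave the cycle.

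Bases before the RefSeq start sites of 5 of these genes (GRCh38.p14) are shown here because the genes differed in response, KLF11, KLF4, KLF13 and KLF6 being raised 2-fold or more and KLF2 not. Each stretch runs 5′ to 3′ on the gene's own strand and stops where an annotated exon begins. Capitals mark, on either strand, the GC box GGGCGG, the E-box CACGTG, the cyclic AMP response element TGACGTCA and the MEF2 element. The stretches lie at chr19:16324576-16324816 on the plus strand for KLF2, chr9:107489770-107490019 on the minus strand for KLF4, chr10:3785282-3785459 on the minus strand for KLF6, chr2:10043971-10044174 on the plus strand for KLF11 (the second of its 2 start sites in the table) and chr15:31326585-31326834 on the plus strand for KLF13. They were chosen after the values and the motifs had been seen, and no read ties the start sites to the deposited counts.
KLF2: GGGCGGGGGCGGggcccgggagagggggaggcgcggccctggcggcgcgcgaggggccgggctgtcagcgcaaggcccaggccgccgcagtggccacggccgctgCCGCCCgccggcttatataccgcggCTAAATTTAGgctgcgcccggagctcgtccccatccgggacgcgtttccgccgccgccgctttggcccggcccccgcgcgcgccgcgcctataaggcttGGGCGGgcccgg
KLF4: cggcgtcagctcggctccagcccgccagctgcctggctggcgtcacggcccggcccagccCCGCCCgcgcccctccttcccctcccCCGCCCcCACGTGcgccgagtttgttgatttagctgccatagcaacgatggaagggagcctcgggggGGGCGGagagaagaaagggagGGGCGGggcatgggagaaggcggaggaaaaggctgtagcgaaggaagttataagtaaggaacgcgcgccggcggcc
KLF6: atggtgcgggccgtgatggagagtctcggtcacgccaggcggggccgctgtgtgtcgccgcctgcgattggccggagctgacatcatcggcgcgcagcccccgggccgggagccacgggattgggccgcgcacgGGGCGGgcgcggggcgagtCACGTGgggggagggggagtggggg
KLF11: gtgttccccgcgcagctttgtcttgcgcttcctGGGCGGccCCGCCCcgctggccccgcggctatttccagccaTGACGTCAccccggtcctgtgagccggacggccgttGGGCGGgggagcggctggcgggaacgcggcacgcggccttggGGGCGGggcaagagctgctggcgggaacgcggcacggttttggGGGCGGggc
KLF13: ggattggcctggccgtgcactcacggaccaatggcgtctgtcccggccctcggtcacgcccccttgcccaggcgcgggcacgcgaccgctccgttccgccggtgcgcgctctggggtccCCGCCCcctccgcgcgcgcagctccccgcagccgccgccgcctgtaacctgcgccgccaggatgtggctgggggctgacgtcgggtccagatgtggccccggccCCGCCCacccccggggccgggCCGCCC

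RefSeq windows of 250 bases before to 50 after a start site were found for 8 of the 10 genes, 13 windows in all, and not for KLF3 and KLF10. The GC box stood in at least 1 window of 7 of the 8 genes, KLF9 being the exception, which is 8 of their 13 windows, and in 45% of all 35116 windows. The E-box stood in windows of KLF4, KLF6, KLF7 and KLF11, 4 of the 13, and in 7.26% of all windows. In the stretches above it began at -157 of KLF4 and at -97 of KLF6, counted from the start site, while the E-box of KLF11 lay in its other window. The cyclic AMP response element was found in KLF11 alone of the 8 genes, at -176, and in 1.85% of all windows. The MEF2 element was found in KLF2 alone, at -120, and in 0.572% of all windows. CACCC, the other sequence that KLF proteins are known to bind, stood in windows of KLF5, KLF7, KLF11 and KLF13, 7 of the 13, and in 59.9% of all windows. The windows of KLF2, KLF13 and the first of KLF11 were 80.7%, 78.3% and 77.3% G and C, and that of KLF9 was 32.7%. A match is a description of these letters, not a site shown to be bound.

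Of the 10 KLF genes, 9 had enough counts to be tested, and 5 of these rose at least 2-fold with an adjusted p under 0.05: KLF11, KLF4, KLF13, KLF5 and KLF6. By edgeR none fell: 0 were lower at least 2-fold and 0 at an unadjusted p under 0.05. By DESeq2 0 were lower at least 2-fold. KLF3 and KLF10 passed the adjusted p with increases under 2-fold, and KLF9 did not pass. KLF2 passed it with a small increase of 1.14-fold, but not with upper-quartile factors, total counts or deposited FPKM. Over all 14728 genes tested, 27.1% changed at least 2-fold, 12.4% being higher and 14.7% lower. By the adjusted p alone 8 of the 9 were higher and none lower, where 77.6% of all genes passed, 39% higher and 38.6% lower. The median log2 fold change of the 9 genes was 1.49, and that of all genes tested was -0.0046. For 8 of the 9 every rhCYGB library lay above every untreated library, as did 39.8% of all genes tested, while 39.7% lay wholly below. In bulk RNA, more transcripts per cell and a larger share of cells that express a gene cannot be told apart.

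**Figure D1:**
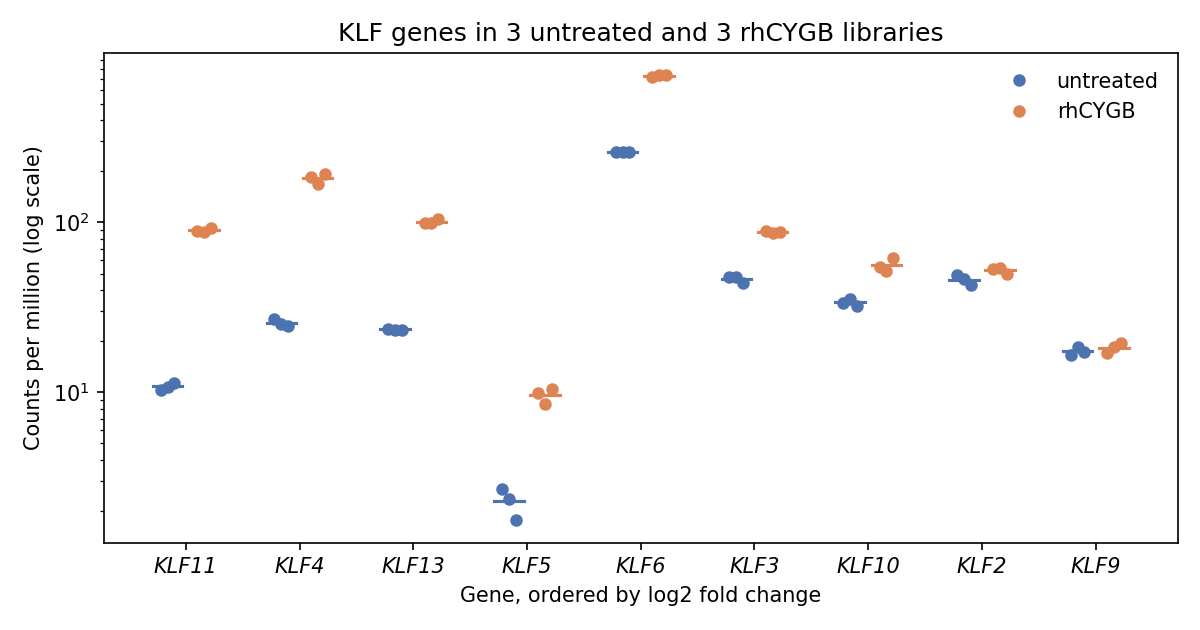
CPM (counts relative to scaled library totals, log scale) of the 9 tested KLF genes in each library, with 3 untreated libraries in blue and 3 rhCYGB libraries in orange; points are libraries and lines are group means. The groups lie apart for every gene but KLF9, from 10.4 to 11.4 against 87.6 to 92.8 CPM for KLF11 down to 42.8 to 48.8 against 49.5 to 54.1 for KLF2; the KLF9 difference changed sign and KLF2 no longer passed the adjusted p with upper-quartile factors, total counts or deposited FPKM.

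KLF11, KLF10, KLF9 and KLF13 share a short amino-terminal segment that binds SIN3A and act mainly as repressors. KLF11, first described as a gene induced early by transforming growth factor beta (TGF-beta) and located on chromosome 2 at 10183677 to 10194963 in the deposited table, had the largest change of the 9. In CPM (a gene's reads relative to the scaled total of its library) it stood at 10.4, 10.8 and 11.4 in untreated libraries 1 to 3 and at 88.7, 87.6 and 92.8 in rhCYGB libraries 1 to 3. The lowest rhCYGB library was more than 7 times the highest untreated one. The log2 fold change was 3.05 ± 0.055 (SE, n = 3 and 3), 8.27-fold (adjusted p = 9.86e-16), and 149 of the 14728 genes rose more.

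KLF13, a regulator of the chemokine CCL5 in lymphocytes (chromosome 15, 31619038 to 31727868), was measured at 23.7, 23.1 and 23.4 CPM without rhCYGB and at 98.5, 99.4 and 105 with it. The 3 untreated libraries differed by under 1 CPM, and all treated ones were about 4 times as high. Its change was 4.31-fold, a log2 value of 2.11 ± 0.047 (SE; adjusted p = 8.49e-15). The values of KLF10, the other TGF-beta-inducible early gene (chromosome 8), were 33.7, 35.3 and 32.4 CPM in untreated and 54.9, 52.0 and 61.5 in rhCYGB libraries. The groups did not overlap, and the spread was wider after treatment than before it. The increase was 1.66-fold, a log2 fold change of 0.73 ± 0.062 (SE; adjusted p = 3.40e-08), so KLF10 did not reach 2-fold. KLF9, a gene known to respond to glucocorticoid and thyroid hormones (chromosome 9, 72999513 to 73029573), lay at 16.5, 18.5 and 17.3 CPM in untreated and 16.9, 18.4 and 19.6 in rhCYGB libraries. These ranges overlap. The log2 fold change was 0.07 ± 0.075 (SE; adjusted p = 0.412), and it was negative with total counts (-0.10), with upper-quartile factors (-0.07) and with limma on deposited FPKM.

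KLF4, KLF2, KLF5, KLF6 and KLF7 are mostly activators, KLF4 also repressing. KLF4, a factor of differentiated epithelium and one of the factors used to make pluripotent stem cells (chromosome 9, 110247133 to 110252050), was at 26.9, 25.2 and 24.6 CPM in untreated libraries and at 185, 169 and 193 in rhCYGB libraries. All 3 treated libraries were more than 6 times the highest untreated one. The change was 7.13-fold, a log2 fold change of 2.83 ± 0.056 (SE; adjusted p = 2.50e-15), and 184 of all genes tested rose more. KLF2, the close relative of KLF4 that keeps endothelium and T cells quiescent (chromosome 19, 16435637 to 16439496), was at 48.8, 46.5 and 42.8 CPM in untreated and 53.5, 54.1 and 49.5 in rhCYGB libraries. The gap between the groups was under 1 CPM. The change was 1.14-fold, a log2 fold change of 0.18 ± 0.057 (SE; adjusted p = 8.12e-03). The adjusted p became 0.762 with total counts, 0.514 with upper-quartile factors and 0.745 to 0.746 with limma on deposited FPKM, so KLF2 passed the adjusted p with TMM or DESeq2 factors and not with these.

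KLF5, which drives proliferation of gut epithelium (chromosome 13, 73629114 to 73651680), was the least abundant of the 5 genes that rose, with 101, 106 and 72 reads in untreated and 368, 283 and 384 in rhCYGB libraries. In CPM these were 2.71, 2.37 and 1.77 against 9.91, 8.51 and 10.4, and the groups did not overlap. The change was 4.22-fold, a log2 fold change of 2.08 ± 0.15 (SE; adjusted p = 6.91e-09). Its SE was the widest of the 9 genes, and its value ranged from 1.05 to 2.21 over the alternatives, the lowest being that of limma on log2(FPKM + 1). KLF6, a widely expressed factor and a gene altered in several carcinomas (chromosome 10, 3818188 to 3827473), had 258, 258 and 259 CPM in untreated and 720, 733 and 732 in rhCYGB libraries. The replicates of each group lay within 2% of each other, and the groups were far apart. The change was 2.82-fold, a log2 fold change of 1.49 ± 0.033 (SE; adjusted p = 7.37e-15), and 6.16% of all tested genes rose more.

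KLF7, a factor of neurons and adipose tissue (chromosome 2, 207938861 to 208031970), was nearly silent. Its reads were 2, 9 and 7 in untreated and 2, 9 and 0 in rhCYGB libraries, which is too few to test or to give a fold for. A count of 0 allows up to 3 reads. KLF3, a repressor that recruits CtBP and is known from adipose and red blood cells (chromosome 4, 38665820 to 38703138), stood at 47.5, 47.9 and 44.1 CPM in untreated and 89.3, 87.1 and 88.0 in rhCYGB libraries. The groups did not overlap, and the 1.90-fold change (log2 fold change 0.92 ± 0.046, SE; adjusted p = 5.21e-11) was just short of 2-fold. A gene on the other strand, KLF3-AS1, overlaps it. This antisense gene had 7, 7 and 24 reads in untreated and 0, 20 and 14 in rhCYGB libraries, against 1771 to 3319 for KLF3, and whether the counting used strand is not given in the sources used here.

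**Figure D2:**
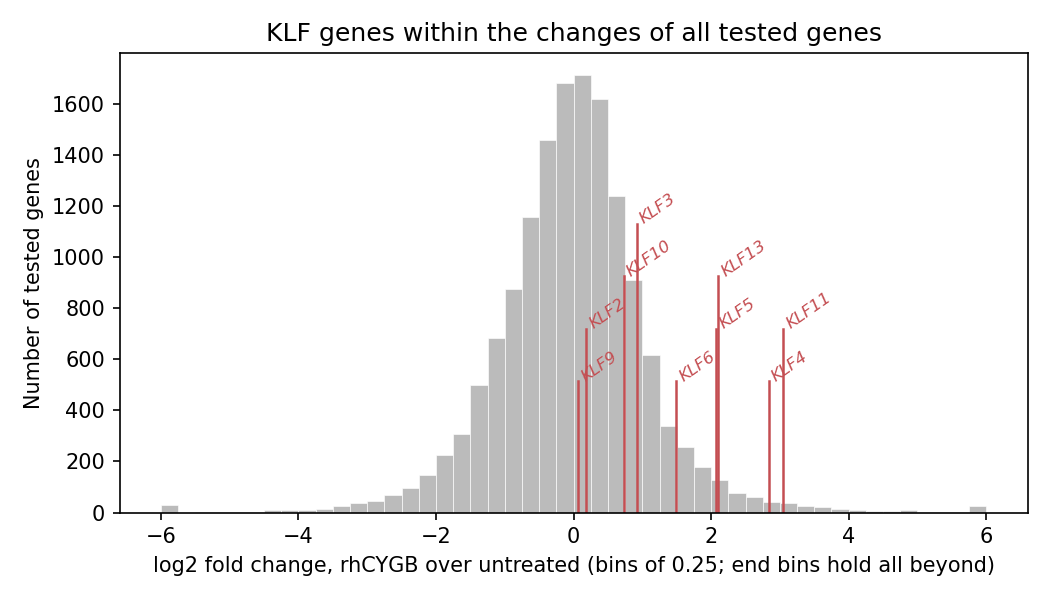
Histogram of the log2 fold change (rhCYGB over untreated, x axis) of the 14728 tested genes in bins of 0.25 (y axis, number of genes), with the 9 tested KLF genes as red lines whose heights carry no value. KLF11 at 3.05 and KLF4 at 2.83 lie in the right tail and KLF9 at 0.07 near the peak; KLF9 changed sign with upper-quartile factors, total counts or deposited FPKM.

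Levels of different genes were compared per length, in the deposited FPKM of each library, which are fragments relative to transcript length and mapped reads and carry no composition correction. In untreated cells KLF6 was the most abundant of the 10 genes at 52.7 ± 0.54 FPKM (SD, n = 3), followed by KLF2 at 15.2 ± 0.88, KLF10 at 10.8 ± 0.39, KLF4 at 8.08 ± 0.33 and KLF3 at 7.75 ± 0.29. Below them came KLF13 at 3.19 ± 0.041, KLF9 at 3.12 ± 0.18, KLF11 at 2.50 ± 0.14, KLF5 at 0.632 ± 0.13 and KLF7 at 0.0140 ± 0.0074. The neighbours KLF4 and KLF3 had overlapping ranges, as did KLF13 and KLF9. After rhCYGB KLF6 stayed first at 132 ± 2.8 FPKM (SD, n = 3), and KLF4 moved from the fourth to the second place at 51.4 ± 4.6. KLF11 moved from the eighth to the third at 18.5 ± 0.93, but its range overlapped that of KLF10 (15.9 ± 1.7), which overlapped that of KLF2 (15.4 ± 0.51). KLF3 at 13.1 ± 0.41 and KLF13 at 12.3 ± 0.63 overlapped too, and KLF9 (2.92 ± 0.24), KLF5 (2.39 ± 0.29) and KLF7 (0.0104 ± 0.014) came last. KLF2 held 16.03, 15.3 and 14.3 FPKM in untreated and 15.9, 15.6 and 14.9 in rhCYGB libraries, ranges that overlap.

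Ratios within a library do not depend on the scaling between libraries. KLF2 exceeded KLF4 by 1.89, 1.93 and 1.82 times in untreated libraries, in FPKM. In rhCYGB libraries KLF4 exceeded KLF2 by 3.31, 2.98 and 3.73 times, a reversed order in all 3. KLF10 was 4.50, 4.53 and 3.94 times KLF11 in untreated and 0.846, 0.819 and 0.916 times in rhCYGB libraries, so this pair crossed as well. KLF9 was 0.913, 1.05 and 0.972 times KLF13 before and 0.225, 0.243 and 0.245 times after treatment. KLF4 was 11.4, 12.1 and 15.9 times KLF5 in untreated and 21.3, 22.5 and 21.0 times in rhCYGB libraries. In each of these 4 pairs the groups did not overlap, with an exact two-sided permutation p of 0.1 (adjusted p 0.1), the smallest that 3 against 3 libraries can give. These unequal changes show that the KLF genes did not rise by a common factor.

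The summed FPKM of the 18 KLF genes was 132, 132 and 130 in untreated libraries and 357, 339 and 365 in rhCYGB libraries, 2.70 times as high. KLF6 supplied 40.1% ± 0.87 of this sum (SD, n = 3) in untreated cells and 37.4% ± 0.77 after treatment. The share of KLF4 went from 6.16% ± 0.22 to 14.5% ± 0.76 and that of KLF11 from 1.91% ± 0.13 to 5.23% ± 0.097. The share of KLF2 went from 11.6% ± 0.56 to 4.37% ± 0.27, that of KLF10 from 8.22% ± 0.23 to 4.50% ± 0.34 and that of KLF9 from 2.38% ± 0.14 to 0.826% ± 0.058. KLF2, KLF10 and KLF9 thus held less of the family's summed FPKM; in FPKM itself KLF10 was higher after treatment, the ranges of KLF2 overlapped, and KLF9 was 3.12 before and 2.92 after it, with overlapping ranges.

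**Figure D3:**
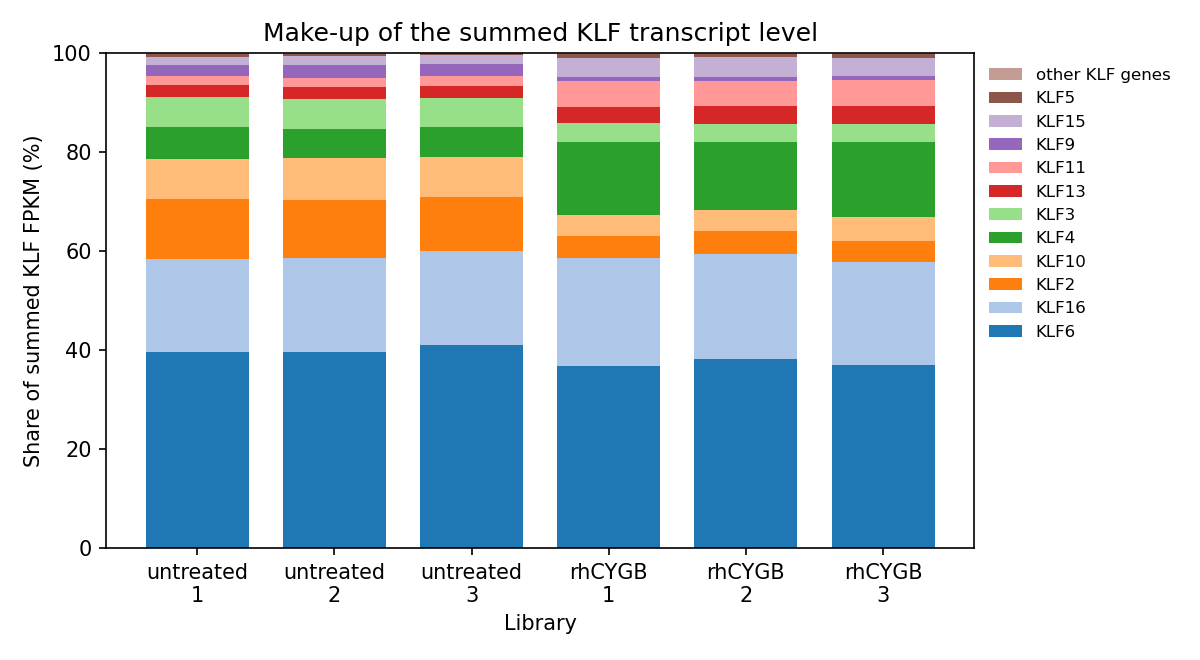
Share of the summed FPKM of all 18 KLF genes (y axis, percent) held by each gene in each of the 3 untreated and 3 rhCYGB libraries (x axis), one stacked bar per library. KLF6 holds the largest part throughout, 40.1% and 37.4% on average, while KLF4 widens from 6.16% to 14.5% and KLF2 narrows from 11.6% to 4.37%.

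The other KLF and SP genes of the table were 17, of which 12 had a count and 9 were tested. Of the 9, 5 rose and 0 fell at least 2-fold by edgeR, beside 12.4% higher and 14.7% lower of all genes tested. KLF14, among the 5, passed the count filter only through its rhCYGB reads, so it could not have been called lower. With at least 10 reads in every library 4 rose and 0 fell, where 1535 rose and 1728 fell of all 13396 genes tested that way. None was lower at an unadjusted p under 0.05 by edgeR or 2-fold lower by DESeq2, and the median log2 fold change of the 9 was 1.56. KLF15, a regulator of glucose and amino acid metabolism, rose from 243, 292 and 250 reads to 1575, 1366 and 1443 (log2 fold change 2.68 ± 0.066, SE; adjusted p = 2.34e-14). KLF16, a repressor with the same SIN3A-binding segment as KLF9 and its relatives, rose from 77.5, 78.6 and 75.3 CPM to 269, 257 and 260 (1.76 ± 0.038 on the log2 scale; adjusted p = 6.25e-15). KLF16 was the second largest part of the KLF sum, at 18.9% and 21.2%. KLF14, of the same subgroup, rose from 6, 10 and 2 reads to 64, 52 and 59 (3.45 ± 0.40; adjusted p = 1.13e-06), a change that passed 2-fold in all alternatives that tested it but limma on log2(FPKM + 1), a minimum of 10 reads in every library leaving it out.

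KLF12, a CtBP-binding repressor like KLF3, had 39, 53 and 34 reads before and 43, 21 and 33 after treatment, which overlap (log2 fold change -0.19 ± 0.30; adjusted p = 0.583), and its value was 0.0038 without rhCYGB library 2. KLF1, KLF8, KLF17 and KLF18 had 0 reads in all 6 libraries. Over the whole KLF family, 13 genes were tested, 8 rose at least 2-fold and none fell, beside the same 12.4% and 14.7%. The 8 include KLF14, which could only be called higher. Of the SP genes, SP4 (1.56 ± 0.10) and SP6 (2.33 ± 0.27) rose at least 2-fold, SP6 not under limma on log2(FPKM + 1). SP1 (0.46 ± 0.039), SP2 (0.79 ± 0.083) and SP3 (0.65 ± 0.045) passed the adjusted p with increases under 2-fold. SP1 and SP3 are general GC box factors that bind much the same sequence as the KLF proteins. SP9 had 0 reads, and SP5, SP7 and SP8 had 6 reads or fewer in any library.

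**Figure D4:**
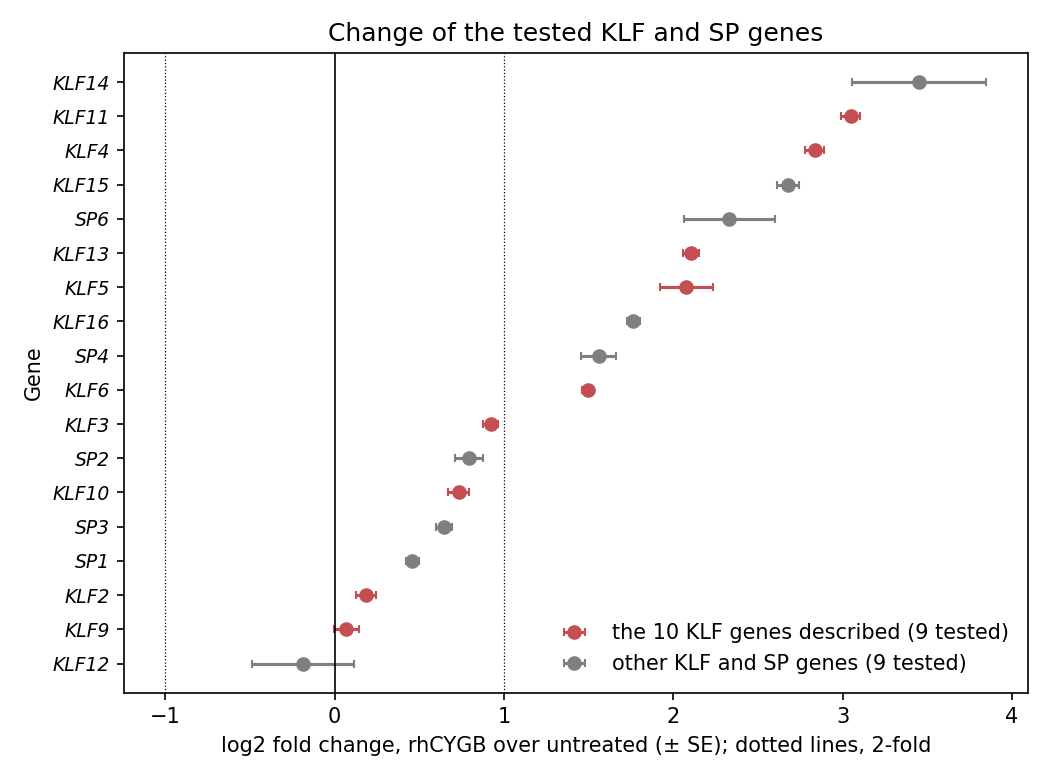
Log2 fold change (rhCYGB over untreated, x axis) with its SE for the 18 tested KLF and SP genes (y axis), the 9 tested of the 10 KLF genes described in red and 9 other KLF and SP genes in grey; dotted lines mark 2-fold. Values run from -0.19 for KLF12 to 3.45 for KLF14; KLF9 changed sign with upper-quartile factors, total counts or deposited FPKM, and KLF12 without rhCYGB library 2.

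The transcript table lists 25 transcripts of the 10 KLF genes, of which 20 had a read and 14 were tested among 32577. Of the 14, 6 rose at least 2-fold and 0 fell, with 0 lower at an unadjusted p under 0.05, against 16.9% of all tested transcripts changed, 8.62% higher and 8.32% lower. KLF2, KLF3 and KLF9 have 1 transcript each. The reads of KLF2 and its transcript are the same, but in the fit over transcripts its log2 fold change was 0.10 ± 0.070 (SE; adjusted p = 0.343) and did not pass, and that of KLF9 was -0.01 ± 0.10 (adjusted p = 0.956), with the sign turned. KLF5, KLF11 and KLF13 had at least 99.7% of their reads on 1 transcript in every library. KLF4 has a longer variant 1 and a shorter variant 2. Variant 1 had 103, 101 and 55 estimated reads in untreated and 682, 693 and 1190 in rhCYGB libraries, and variant 2 had 901, 1027 and 948 against 6184, 4920 and 5923. Both rose, by 3.41 ± 0.37 (SE; adjusted p = 1.61e-03) and 2.67 ± 0.052 (adjusted p = 7.21e-06) on the log2 scale. The share of variant 1 was 10.3%, 9.0% and 5.5% before and 9.9%, 12.3% and 16.7% after treatment, and these ranges overlap (exact two-sided permutation p = 0.2).

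KLF6 variant A, the full-length form, had 8156, 10987 and 9089 estimated reads in untreated and 24415, 22699 and 25177 in rhCYGB libraries, a log2 fold change of 1.48 ± 0.054 (SE; adjusted p = 3.50e-05). It held 84.7% to 94.9% of the gene's reads in every library. Variant B (1.21 ± 0.52; adjusted p = 0.152), variant C (0.74 ± 0.33; adjusted p = 0.165) and the noncoding variant D (-0.12 ± 1.3; adjusted p = 0.959) did not pass. Variant D ran from 15 to 813 estimated reads among the untreated libraries alone, so the split of KLF6 reads among its minor variants was not measured with any precision. KLF10 variant 2 had 4, 46 and 20 estimated reads before and 230, 45 and 35 after treatment, and the groups overlapped. Its log2 fold change was 2.29 ± 1.1 (SE; adjusted p = 0.198) and rests on rhCYGB library 1, while variant 1, with at least 88.7% of the gene's reads in every library, rose by 0.61 ± 0.097 (adjusted p = 6.72e-03). The 4 isoform shares compared are those of 2 pairs of variants that nearly sum to the whole, and their exact two-sided permutation p was 0.2 to 0.6, where 3 against 3 libraries cannot go below 0.1, so no share could have passed.

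**Figure D5:**
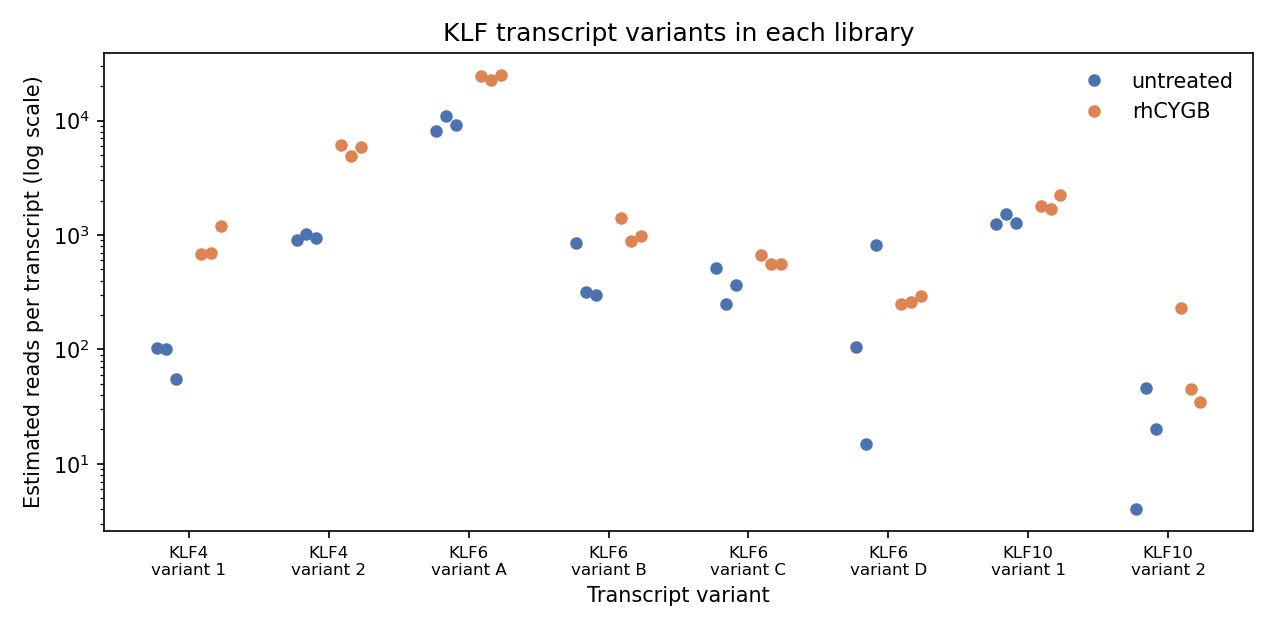
Estimated reads (log scale, y axis) of the transcript variants of KLF4, KLF6 and KLF10 (x axis) in each of 3 untreated (blue) and 3 rhCYGB (orange) libraries. Variants 1 and 2 of KLF4 and variant A of KLF6 lie apart between the groups, while KLF6 variant D spans 15 to 813 reads in untreated libraries.

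Among genes of the proteins that KLF factors recruit, 11 were tested, 1 rose and 1 fell at least 2-fold, and 5 were higher and 6 lower by the adjusted p. The share changed 2-fold was not above the 27.1% of all genes, of which 77.6% passed the adjusted p. The repressor side was mixed. SIN3A, the scaffold that KLF9, KLF10, KLF11, KLF13 and KLF16 bind, was 72.1, 70.7 and 78.5 CPM in untreated and 106, 110 and 115 in rhCYGB libraries (log2 fold change 0.58 ± 0.048, SE; adjusted p = 2.69e-08). HDAC1, a deacetylase of the same complex, fell from 235, 234 and 238 to 86.7, 84.5 and 98.1 CPM (-1.39 ± 0.050; adjusted p = 1.19e-12). HDAC2 (-0.48 ± 0.037) and HDAC3 (-0.63 ± 0.041) were lower with changes under 2-fold. Of the CtBP genes, CTBP1 was lower (-0.14 ± 0.038) and CTBP2 higher (0.15 ± 0.048) by the adjusted p. CTBP2 did not pass with upper-quartile factors, total counts or limma on FPKM. CREBBP, which encodes the coactivator CBP, was 70.9, 67.1 and 67.1 CPM before and 126, 139 and 158 after treatment (1.04 ± 0.065; adjusted p = 8.50e-10). The CREBBP value fell below 2-fold with upper-quartile factors, total counts or FPKM and without rhCYGB library 3, the lowest being 0.78. The activator side was mixed too. EP300, which encodes p300, was higher (0.37 ± 0.064) but did not pass with limma on FPKM. The acetyltransferase genes KAT2A (-0.19 ± 0.040) and KAT2B (-0.58 ± 0.093) were lower by the adjusted p with changes under 2-fold.

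Proteins that mark KLF factors for destruction or spare them were represented by 9 tested genes, of which 2 rose at least 2-fold and 0 fell that far, with 4 higher and 4 lower by the adjusted p, near the 27.1% and 77.6% of all genes. SIAH1, a ubiquitin ligase that targets KLF10, rose from 19.8, 14.8 and 18.7 CPM to 84.6, 79.2 and 79.6 (log2 fold change 2.20 ± 0.079, SE; adjusted p = 1.38e-12). FBXW7, which targets KLF2 and KLF5, rose from 12.1, 12.4 and 10.9 to 26.7, 25.2 and 27.1 (1.16 ± 0.071; adjusted p = 6.51e-10), and its value was under 2-fold with total counts or FPKM. SMURF1 (0.94 ± 0.049), which targets KLF2, passed the adjusted p with an increase under 2-fold. The ligase WWP1 (-0.25 ± 0.060), which targets KLF2 and KLF5, passed it with a decrease.

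In endothelium the kinases MEK5 and ERK5 induce KLF2 and KLF4 through MEF2 factors. Of the 8 genes of this route, 6 were tested and 2 rose at least 2-fold. By the adjusted p 5 were higher and 0 lower, and 0 were lower at an unadjusted p under 0.05 or 2-fold lower by DESeq2. Of all genes tested 12.4% rose 2-fold, and 39% were higher and 38.6% lower by the adjusted p. MEF2D rose from 47.7, 51.9 and 51.4 CPM to 153, 149 and 167 (log2 fold change 1.63 ± 0.051, SE; adjusted p = 2.60e-13). MEF2A rose from 31.6, 33.6 and 33.1 to 76.9, 72.5 and 75.3 (1.19 ± 0.048; adjusted p = 4.48e-12). MAPK7, the gene of ERK5, was higher by 0.52 ± 0.076 and MAP3K2 by 0.75 ± 0.047, both under 2-fold. MAP2K5 was higher by 0.33 ± 0.072 but did not pass with limma on FPKM. MAP3K3 (-0.10 ± 0.052; adjusted p = 0.080) did not pass here. It passed the adjusted p as lower with upper-quartile factors, total counts, limma on FPKM or a minimum of 10 reads in every library. It also passed as lower without untreated library 3 or without rhCYGB library 3. MEF2C, the member best known upstream of KLF2, had 7 reads in 1 library and 0 in the others.

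Since KLF10 and KLF11 are TGF-beta early genes, genes of that pathway were counted. Of 11 listed, 9 were tested, 3 rose and 2 fell at least 2-fold, and 7 were higher and 2 lower by the adjusted p, where 27.1% of all genes changed 2-fold and 77.6% passed the adjusted p. Of the ligands, TGFB3 fell from 109, 178 and 137 reads to 54, 43 and 48 (log2 fold change -1.34 ± 0.19, SE; adjusted p = 1.27e-05), and TGFB1 was higher by 0.68 ± 0.073. SMAD3, a signal carrier, fell from 122, 123 and 127 CPM to 52.4, 48.1 and 50.8 (-1.30 ± 0.044; adjusted p = 6.61e-13), and TGFBR2, a receptor, had 17 reads or fewer in any library. Of the target genes, SKIL rose by 1.56 ± 0.090 (adjusted p = 3.10e-10) and SMAD7, an inhibitor of the pathway that KLF11 is known to repress, by 2.09 ± 0.34 (adjusted p = 4.46e-05) from 14, 22 and 8 reads to 50, 58 and 55. TGFB3, SMAD7 and SKIL did not reach 2-fold with limma on log2(FPKM + 1). The signal carriers SMAD2 (0.98 ± 0.042) and SMAD4 (0.53 ± 0.049) passed the adjusted p with increases under 2-fold. SMAD2 reached 2-fold without untreated library 2 or without rhCYGB library 2. Ligand and signal carrier genes of the pathway thus moved in both directions, while the target genes SKIL and SMAD7 rose.

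Genes known in other cells as direct targets of KLF factors were 21, of which 15 were tested, with 4 higher and 2 lower at least 2-fold and 8 higher and 4 lower by the adjusted p. Of all genes 27.1% changed 2-fold, and 77.6% passed the adjusted p, near the share of this list. Their median log2 fold change was 0.24. CDKN1A, the cell cycle inhibitor p21 that KLF4 and KLF6 are known to induce, rose from 17.8, 15.4 and 14.001 CPM to 44.7, 47.3 and 51.1 (log2 fold change 1.60 ± 0.078, SE; adjusted p = 4.46e-11). ATF3, a stress-response factor and a known KLF6 target, rose from 6.66, 5.33 and 4.85 to 262, 275 and 261 (5.57 ± 0.072; adjusted p = 6.64e-17). CCND1, which encodes cyclin D1 and is known as repressed by KLF4, fell from 165, 164 and 163 to 59.7, 59.6 and 62.1 (-1.44 ± 0.038; adjusted p = 4.97e-14). BIRC5, the survivin gene and a known KLF5 target, fell by 2.21 ± 0.056 on the log2 scale (adjusted p = 2.98e-14), while KLF5 rose. The list also holds SMAD7 and the KLF6 target TGFB1, both given above as higher. PDGFA, a target of KLF5, rose by 1.02 ± 0.088 (adjusted p = 4.30e-08), and its value was under 2-fold in several alternatives. ODC1, known as another gene that KLF4 represses, was higher by 0.89 ± 0.043 (adjusted p = 3.40e-11), and ENG, known as induced by KLF6, was lower (-0.51 ± 0.052; adjusted p = 2.85e-07), both under 2-fold. NOS3, which KLF2 induces in endothelium (-0.12 ± 0.18; adjusted p = 0.557), and PLAU, known as induced by KLF6 (0.04 ± 0.041; adjusted p = 0.337), did not pass. PLAU passed the adjusted p as lower with upper-quartile factors, total counts or limma on FPKM, its lowest value being -0.123. The other members include CCL5, the KLF13 target, with 8.43, 10.2 and 6.79 CPM before and 8.48, 7.48 and 8.11 after treatment (adjusted p = 0.604). THBD, an endothelial target of KLF2, had 0 reads. The list holds changes with and against the known direction of regulation, and which of them a KLF protein bound in these cells was not measured.

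Facts of the whole series that touch these values are few. The composition factors were 1.06 in all untreated libraries and 0.932 to 0.955 in the rhCYGB libraries, so this correction moves with the treatment, and without it the median of all genes shifts by -0.16 on the log2 scale. The keratin genes KRT8 and KRT18 and the mesenchymal gene VIM were each above 1000 CPM in every library, while the epithelial genes EPCAM and CDH1 had 0 reads and 2 reads in all. DCN and LUM of fibroblasts, PTPRC and CD3E of immune cells and PECAM1 of endothelium had 0 reads in every library. The summed fibroblast list went from 148 to 159 CPM to 11.5 to 13.6. Nearly all of it was COL1A2 in untreated libraries, and COL1A2 fell to 6.25, 6.40 and 7.92 CPM after rhCYGB. ACTA2 was most of the rest after treatment, at 5.17, 5.41 and 5.32 CPM, and did not pass by edgeR (log2 fold change -0.08; adjusted p = 0.548). The endothelial list, nearly all of it CDH5, fell from 109 to 122 CPM to 10.5 to 13.6. The immune list, all of it CD68, went from 34.3 to 38.0 CPM to 70.4 to 72.4. Their part in the KLF values was not tested.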

How the data were processed

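Total RNA of 3 untreated and 3 rhCYGB samples was made into stranded mRNA libraries. The submitters' processing notes name FastQC 0.11.7, HISAT2 2.1.0 and StringTie 2.1.3b. The authors deposited raw read counts of genes and of transcripts, with FPKM (scaled by the authors to transcript length and mapped reads). The notes name the mouse build mm10, but the genes are human; the build of the deposited positions is not named, and most do not overlap those of GRCh38. The 12 deposited TPM columns were not used.

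Counts were tested with edgeR 4.0.16 (quasi-likelihood F test, filterByExpr, TMM factors) in R 4.3.3 over the whole table, with Benjamini-Hochberg adjustment over 14728 genes or 32577 transcripts. A gene was called at an adjusted p under 0.05 and at least 2-fold. The SE given with an edgeR log2 fold change is its absolute value divided by the square root of its F statistic. CPM use TMM-scaled totals. The common dispersion gave a coefficient of variation of 5.48% between replicates. Shares and ratios were compared by exact permutation of libraries. The fits were tested on simulated data. The 10 genes, and the lists of other genes, were chosen with earlier results of these data known. All 10 genes, every other KLF or SP gene with a read, and up to 4 called genes in each direction of the other lists were to be named. One called gene of the TGF-beta list is not reported here. Alternatives were DESeq2 1.42.0, limma 3.58.1 on log2(FPKM + 1) or log2(FPKM + 0.1), other scaling factors, other filters, a replicate block, and omission of each library. Promoter windows are RefSeq's (GRCh38.p14).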

Additional observations from a re-analysis of the deposited data

How the results depend on the processing

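The count of 5 KLF genes raised at least 2-fold, with none lowered, was 5 in every alternative fit, and 8 by the adjusted p alone; the adjusted p alone also gave 8 of the other KLF and SP genes, 11 cofactor genes, 8 turnover genes, 5 of the MEK5 list, 9 of the TGF-beta list, 12 targets and 11427 of all genes, where the 2-fold limit gave 5, 2, 2, 2, 5, 6 and 3998. Limma on log2(FPKM + 1) gave 1977 of all genes, 3 other KLF and SP genes, 1 cofactor gene, 1 turnover gene and 2 TGF-beta genes. The cofactor count was 1 with upper-quartile factors, 1 with total counts and 1 with limma on log2(FPKM + 0.1), and 1 to 2 with a library left out, 1 being the count without rhCYGB library 3, which lost CREBBP. The turnover count was 1 with total counts and 1 with limma on log2(FPKM + 0.1). With a library left out the TGF-beta count was 5 to 7, the target count 5 to 6 and the transcript count 6 to 8. KLF9 was -0.07273 with upper-quartile factors, -0.09596 with total counts, -0.07116 with limma on log2(FPKM + 1) and -0.09205 with log2(FPKM + 0.1). Of all calls 45.8% were higher, against 33.9% with total counts, 35.5% with upper-quartile factors and 35.5% with limma on log2(FPKM + 0.1), the median of all genes moving by -0.16, -0.14 and -0.15. Same-numbered libraries did not deviate together (Pearson r -0.048, 0.0072 and 0.0055, across genes), so no shared effect of the replicate number was seen. With 3 libraries in each group this cannot show whether the samples were paired. With the replicate number as a block 5 KLF genes and 3978 of all genes were called. KLF7 had too few reads for a statement on its change.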
